A study of Mus musculus with 3 samples.

Results

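Npy, Spock2, Mt3 and Prss56 are 4 of the 32285 genes counted in single cells of mouse small intestinal organoids, and they were chosen by measured values, namely a high level in the LApc library and a level near 0 in the LApcL and WT libraries. Organoids are epithelial cells grown as hollow bodies in a gel. They were described mainly in 2161 deep LApc barcodes, out of 10706 deposited for that library. Each barcode stands for a droplet, as a rule with 1 cell in it. A deep barcode was present in 1 library only, had at most 20% of its unique molecular identifiers (UMIs, each marking 1 captured RNA molecule) from mitochondrial genes, and held at least 10000 UMIs.

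The study asked what loss of Lef1 changes in Apc-mutant intestinal epithelium, and the organoid series used here has 1 library for each of 3 genotypes on a C57BL/6 background. The WT group was wild type. LApc mice carried Lgr5-CreERT2 with Apc fl/fl, and LApcL mice had Lef1 fl/fl in addition to both of these, so the mutant groups share the floxed Apc alleles and a tamoxifen-inducible Cre that is driven by the stem cell gene Lgr5. According to the labels all mice were 7 to 8 weeks old and received 2 doses of tamoxifen at 2 mg, and organoids were taken at passage 3 on day 6. By the labels, LApc mice were taken 29 days after tamoxifen, WT and LApcL mice 21 days after it. The study's organoid methods, however, give isolation times of at most 21 days for LApc and LApcL. The number of mice behind each culture is not given in the labels, and recombination, which occurs only in cells with active Lgr5-driven Cre, was not measured here. With 1 library per genotype no test of a genotype effect is possible. Genotype, days after tamoxifen, culture and library cannot be told apart, and the female-specific transcript Xist stood at 1281 CPM (UMIs per 1000000 UMIs) in LApc deep barcodes against 0.261 in LApcL and 0.920 in WT, so the sex of the mice cannot be told apart from them either.

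The genes have different known roles. Npy encodes neuropeptide Y, a secreted peptide of neurons that is cut from a precursor and signals through G protein-coupled receptors. Spock2 encodes testican-2, a secreted proteoglycan of the extracellular matrix. Mt3 encodes a metallothionein, a small cysteine-rich protein that binds zinc and copper, best known from the brain. Prss56 encodes a trypsin-like serine protease known for its part in eye growth. The canonical Wnt pathway, which Apc restrains, acts in the intestinal crypt through beta-catenin and the TCF/LEF family of transcription factors, Lef1 among them, and also induces genes that dampen Wnt signals.

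On the mouse build GRCm38 all 4 genes are protein-coding, lie on the plus strand and are on different chromosomes. Npy spans chr6:49822710-49829507 with 4 exons, Spock2 chr10:60106219-60135198 with 11 exons in its first listed transcript, Mt3 chr8:94152607-94154146 with 3 exons, and Prss56 chr1:87183313-87188405 with 13 exons. Reads of a 3′ method come mostly from the last exon, which in Npy is chr6:49829303-49829507 and in Prss56 chr1:87187945-87188405. The sequences just before the starts are shown because the genes were high in the same library and Lef1, which distinguishes the mutant genotypes, is a TCF/LEF factor. They come from RefSeq on GRCm38.p6, whose promoter table held all 4 genes, and read 5′ to 3′ on the plus strand. Capitals mark the TCF/LEF core CTTTGA or, on the other strand, TCAAAG. Npy, chr6:49822460-49822709, and Mt3, chr8:94152357-94152606, are shown whole for 250 bases. Spock2, chr10:60106007-60106218, is shown up to the earliest annotated start. Prss56 is shown as 30 bases around each match, chr1:87183119-87183148 and chr1:87183190-87183219, since both matches lie inside the span that RefSeq lists for the gene.
Npy: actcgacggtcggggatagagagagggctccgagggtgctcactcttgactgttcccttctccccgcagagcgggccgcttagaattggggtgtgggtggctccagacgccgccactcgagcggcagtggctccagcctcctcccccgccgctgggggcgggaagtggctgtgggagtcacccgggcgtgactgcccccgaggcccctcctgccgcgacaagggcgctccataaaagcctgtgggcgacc
Spock2: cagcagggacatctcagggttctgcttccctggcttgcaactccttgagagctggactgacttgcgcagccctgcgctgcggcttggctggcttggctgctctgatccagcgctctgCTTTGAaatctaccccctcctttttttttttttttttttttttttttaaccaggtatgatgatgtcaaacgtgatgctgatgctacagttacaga
Mt3: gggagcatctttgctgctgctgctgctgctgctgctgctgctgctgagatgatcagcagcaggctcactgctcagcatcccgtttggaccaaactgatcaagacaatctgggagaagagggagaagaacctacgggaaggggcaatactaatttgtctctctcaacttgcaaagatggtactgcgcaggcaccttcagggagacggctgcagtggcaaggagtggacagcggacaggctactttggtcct
Prss56, first match: ccatctcagcccCTTTGAagcaaccgcagg
Prss56, second match: gacgatgagactTCAAAGgtgagggtccag

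Both strands of the 250-base promoter window of each gene, taken from RefSeq, were searched for 5 motifs chosen after earlier results were known. CTTTGA occurred once in the Spock2 window, beginning 95 bases before the gene start given above, and in neither Npy nor Mt3. In the Prss56 window it occurred at 2 places, 182 and 111 bases before the start given above. Both places lie inside the span that RefSeq lists for Prss56, so they are not upstream of the gene as RefSeq places it. The RefSeq start of Spock2 lies downstream of the start given above, so that 38 of the 250 bases searched are inside the gene. Of 32851 mouse promoters of the same length, 13.8% held this motif. The other TCF/LEF core, CTTTGT, was in none of the 4 windows and in 16.5% of all promoters. The metal response element cores TGCACNC (10.4% of promoters) and TGCGCNC (12.5%), through which zinc induces many metallothioneins, and the TATA box TATAAA (12.4%) were in none of the 4 either. The windows differed in composition. The Npy window was 69.2% G or C with 21 CpG dinucleotides, the Spock2 window 51.2% with 7, the Mt3 window 54.8% with 5 and the Prss56 window 61.2% with 7, against medians of 52.4% and 6 over all promoters. A match of letters describes the sequence and marks no binding.

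The levels in deep barcodes are what chose the genes and are given as a description, with no test. The 35996 Npy UMIs of LApc stood against 2 in LApcL and 0 in WT. Spock2 had 21221, 49 and 7, Mt3 had 30162, 165 and 37, and Prss56 had 7875, 9 and 4 in the same order. The totals behind them were 90864428, 80504226 and 48895147 UMIs, so that the LApc levels were 396 CPM (95% exact Poisson interval 392 to 400.3) for Npy, 234 (230.4 to 237) for Spock2, 332 (328 to 336) for Mt3 and 86.7 (84.8 to 88.6) for Prss56. Intervals in the text cover counting error only, not the spread between cultures. Those of levels and of ratios of levels also leave out the spread between barcodes. Transcript length was not used, so the 4 genes are not ranked by level.

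Mt3 stood at 2.05 CPM (1.75 to 2.39) in LApcL and 0.757 (0.533 to 1.04) in WT, and Spock2 at 0.609 (0.450 to 0.805) and 0.143 (0.0576 to 0.295), with intervals that did not overlap between LApcL and WT in these deep barcodes. Of the 49 Spock2 UMIs in deep LApcL barcodes, however, 14 sat in 1 barcode, which the interval does not take into account, and in shallow barcodes the LApcL and WT intervals overlapped for both genes. The 4 UMIs of Prss56 in WT and its 9 in LApcL gave 0.0818 and 0.112 CPM with overlapping intervals. The ratio of LApc to LApcL was 384-fold (290 to 519) for Spock2, 162-fold (139 to 190) for Mt3 and 775-fold (408 to 1696) for Prss56. For Npy the 2 UMIs in LApcL sat in 1 barcode, and the ratio of 15946 had an interval of 4414 to 131675. Against WT the ratios were 1631-fold (792 to 4058) for Spock2, 439-fold (318 to 623) for Mt3 and 1059-fold (414 to 3889) for Prss56, and Npy was at least 6457-fold higher, taking 3 counts over the WT library as the limit of a count of 0, where the exact lower bound of the ratio was 5251.

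**Figure D1:**
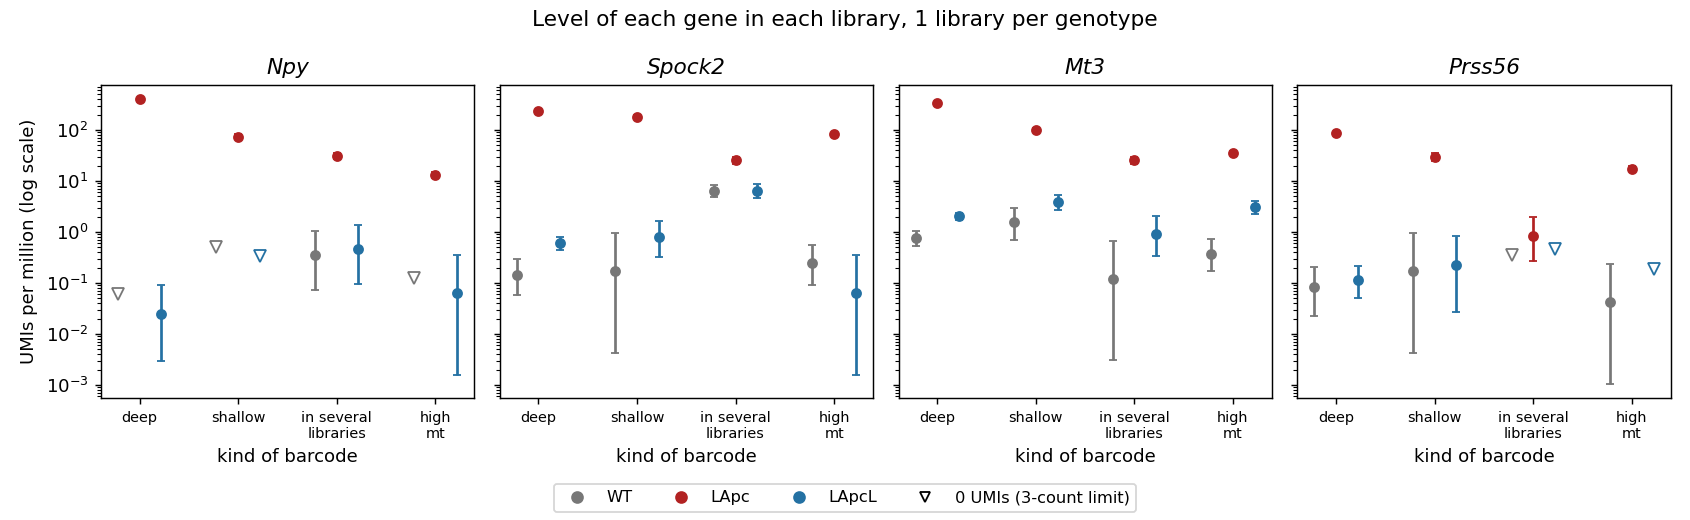
Level of each gene in CPM (log scale) in each library, by kind of barcode, with 95% exact Poisson intervals for counting error; open triangles mark the level of 3 counts where no UMI was found. LApc lies above both other libraries in all 4 genes and all 4 kinds of barcode, from 396 CPM for Npy in deep barcodes down to 0.825 CPM for Prss56 in barcodes found in several libraries, where the interval of 0.268 to 1.93 overlaps the others.

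Few genes had such a pattern. Of the genes with at least 50 CPM in LApc or LApcL, 0.239% were past a log2 ratio of 5 (on CPM + 1) for LApc over LApcL, and of those with 50 CPM in LApc or WT 1.84% were past it for LApc over WT. All 4 members passed both limits by choice, as did 0.228% of the 3068 genes with at least 50 CPM in LApc, which is 7 genes. Just inside the limit lay Prss56, with a lower log2 ratio of 6.30, and Cxcl14, a chemokine, with 5.65 (51.7 CPM in LApc). Just outside lay Podn, with 4.45, the Wnt antagonist gene Dkk3, with 4.40 (81.7 CPM in LApc, 2.91 in LApcL), and Pycr1, an enzyme of proline synthesis, with 4.34 (148 and 6.38 CPM). Tesc, Wif1, Lect2, Pnliprp2 and Tgfb2 followed, between 3.99 and 3.48.

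The LApc library was also highest among shallow barcodes, those with fewer than 10000 UMIs, of which it had 1423. Npy stood there at 73.5 CPM (66.2 to 81.5) against 0 UMIs in shallow LApcL and WT barcodes, Spock2 at 182 (170.3 to 194) against 0.789 and 0.171, Mt3 at 101 (92.3 to 110.2) against 3.83 and 1.54, and Prss56 at 29.4 (24.8 to 34.6) against 0.225 and 0.171. Compared with deep LApc barcodes, Npy was lower in shallow ones by the most and Spock2 by the least. These barcodes belong to the same 3 libraries and are no replicate of the genotypes.

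Barcodes with more than 20% mitochondrial UMIs carried the genes too. In the 3877 such LApc barcodes Spock2 stood at 81.4 CPM, Mt3 at 35.5, Prss56 at 17.4 and Npy at 13.1. The Npy UMIs there were spread thinly, 221 UMIs over 194 barcodes with at most 9 in any of them.

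Some barcodes were present in several libraries, 3195 of them in all 3, and carried endothelial transcripts: the 5 endothelial markers summed to between 3494 and 3756 CPM in them, against 4.77 (WT), 21.5 (LApc) and 12.6 (LApcL) in deep barcodes. Beyond them, the deep barcodes were epithelial in all libraries, with 6 epithelial keratin and junction genes at 7210 CPM in LApc, 7903 in LApcL and 4345 in WT, while the 6 enterocyte markers summed to 20540 CPM in WT and to 2.88 and 5.91 in LApc and LApcL. Deep barcodes had a median of 34377 UMIs for LApc, 32584 for LApcL and 38073.5 for WT.

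The shared barcodes, rich in endothelial transcripts, were set beside the deep ones for the 4 genes. They are not a clean background, since the 6 epithelial genes summed to 811 CPM in those of LApc, and 11 deep ones among them held 169 Npy and 139 Mt3 UMIs, against 17 and 16 in the 3172 shallow ones. With every barcode thinned to 1000 UMIs, 5.97% of deep LApc barcodes had an Npy UMI, against 0.262% of LApc barcodes found in several libraries. For Spock2 the shares were 15.6% and 0.919%, for Mt3 13.9% and 0.262%, and for Prss56 3.10% and 0.0437%. Median depths before thinning were 34377 and 1905 UMIs, and 897 of 3183 shared LApc barcodes were too shallow to enter. Each gene was in a larger share of deep LApc barcodes, with intervals that did not overlap.

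Spock2 differed from the others in those shared barcodes. Among the shallow ones it stood at 13.5 CPM (10.6 to 16.9) in LApc, 6.93 (4.99 to 9.37) in LApcL and 6.52 (4.88 to 8.53) in WT, which is above the 0.143 and 0.609 CPM of deep WT and LApcL barcodes. Of the 67 Spock2 UMIs in the whole WT library, 53 lay in barcodes that were also in LApc, as did 42 of the 99 in LApcL. All 3 Npy UMIs of the WT library also did, and 2 of those 3 barcodes had Npy in LApc. In LApcL 3 of the 6 Npy UMIs did. Prss56 showed no such overlap, with 0 of 6 UMIs in WT and 0 of 11 in LApcL, and Mt3 little, with 1 of 56 and 6 of 254.

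Within deep LApc barcodes the UMIs of the genes were spread over different shares of barcodes, which depend on a gene's level as well as on its spread. Each barcode was thinned to 10000 UMIs so that depth did not set the shares. Spock2 then had a UMI in 825 of 2161 barcodes, or 38.2% (exact binomial interval 36.1 to 40.3), Mt3 in 597 or 27.6% (25.7 to 29.6), Npy in 298 or 13.8% (12.4 to 15.3) and Prss56 in 155 or 7.17% (6.12 to 8.34). Without thinning the shares were 48.1%, 39.6%, 27.0% and 12.03%. In thinned deep barcodes of LApcL and WT, Npy was in 0 of 1931 and 0 of 1208, which allows shares of up to 0.155% and 0.248% by the limit of 3 counts and 0.191% and 0.305% by the exact binomial interval. Mt3 was in 2.80% of LApcL and 0.993% of WT barcodes, Spock2 in 0.829% and 0.166%, and Prss56 in 0.155% and 0.0828%.

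Npy UMIs were held by few barcodes. The highest barcode held 708 Npy UMIs of 10000, or 7.08% of that barcode's RNA as counted. The 22 highest barcodes, the top 1%, held 62.0% of all Npy UMIs, and 15 barcodes held 50% of them. Of the 298 barcodes with any Npy, 130 had exactly 1 UMI and 105 had at least 10, while only 24 had 5 to 9, so single UMIs and high counts were both commoner than counts in between.

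Prss56 was also held by few barcodes. Its highest barcode held 94 UMIs, the top 22 held 57.1% and 18 barcodes held 50%. The top 108 barcodes, or 5%, held 97.9% of the Prss56 UMIs and 96.2% of the Npy UMIs. Of its 155 barcodes, 55 had 1 UMI, 12 had 5 to 9 and 59 had at least 10.

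Spock2 UMIs were spread over more barcodes, with at most 55 in 1 barcode. The top 22 barcodes held 14.02% of the Spock2 UMIs, and it took 136 barcodes to hold 50%. The middle range was well filled, with 221 barcodes at 2 to 4 UMIs, 211 at 5 to 9 and 211 at 10 or more. For Mt3 the highest count was 147, with 23.1% of UMIs in the top 22 and 75 barcodes holding 50%.

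**Figure D2:**
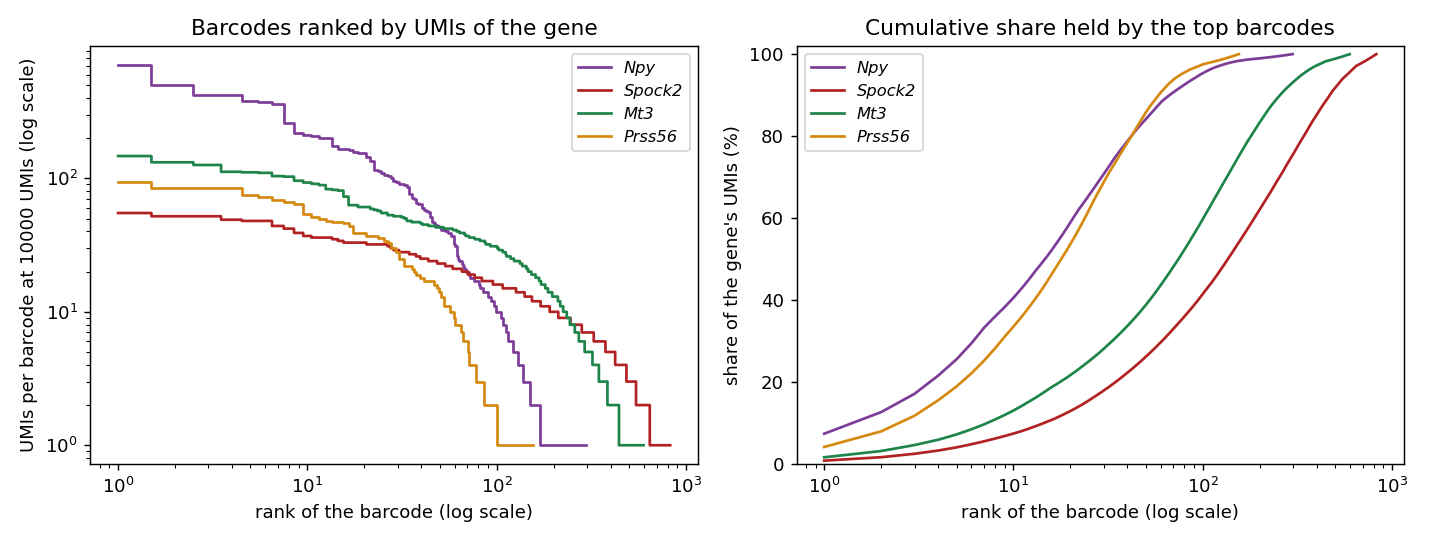
Left, UMIs of each gene per deep LApc barcode after thinning to 10000 UMIs, against the rank of the barcode (both axes log scale); right, the share of the gene's UMIs held by the barcodes up to each rank. The Npy curve starts at 708 UMIs and its top 22 barcodes hold 62.0% of its UMIs, whereas the Spock2 curve starts at 55 UMIs and its top 22 hold 14.02%.

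The 4 genes were rarely all in one barcode. Of 2161 deep LApc barcodes, 1108 (51.3%) had none of them, 464 had 1, 378 had 2, 189 had 3 and 22 (1.02%, interval 0.639 to 1.54) had all 4. The last number depends on which UMIs the thinning kept, and over 20 further draws it lay between 13 and 24. Spock2 with Mt3 and nothing else was the commonest pair, in 256 barcodes, followed by the triplet of Npy, Spock2 and Mt3, in 110, and that of Spock2, Mt3 and Prss56, in 74. Npy with Prss56 and neither other gene was in 0 barcodes, and the 2161 barcodes allow up to 0.139% by the limit of 3 counts and 0.171% by the exact binomial interval. Spock2 was thus present in most barcodes that had any other of the genes: in 67.4% of Npy barcodes, 77.4% of Mt3 barcodes and 86.5% of Prss56 barcodes.

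Detection of a pair was compared with the number that independent detection in these barcodes would give. Spock2 and Mt3 were together in 462 barcodes against 228 expected, a ratio of 2.03 (1.86 to 2.20). The ratio was 2.26 (1.91 to 2.67) for Spock2 and Prss56, 2.38 (1.95 to 2.88) for Mt3 and Prss56, 1.77 (1.54 to 2.01) for Npy and Spock2, and 1.83 (1.56 to 2.14) for Npy and Mt3. Npy and Prss56 stood apart, with 27 barcodes against 21.4 expected, a ratio of 1.26 whose interval of 0.834 to 1.83 includes 1. Over the 20 further draws that ratio lay between 0.797 and 1.24, while the lowest of the other 5 ratios was 1.64.

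A stricter limit of 5 UMIs per gene was set after these values were seen. It left 422 barcodes for Spock2, 320 for Mt3, 129 for Npy and 71 for Prss56. The ratios of the other 5 pairs then lay between 2.58 and 3.75. No barcode had both Npy and Prss56 at that level, against 4.24 expected (upper bound of the ratio 0.870), and over the 20 further draws there were 0 to 1 such barcodes. Of the 129 Npy barcodes 65 also passed the limit for Spock2 and 61 for Mt3, and of the 71 Prss56 barcodes 52 and 32 did. Without thinning, 10 barcodes had at least 5 UMIs of both against 9.19 expected. At least 10 of both were in 3 barcodes against 6.12, a ratio of 0.490 whose interval of 0.101 to 1.43 includes 1. At least 20 of both were in 0 barcodes against 4.09 (upper bound 0.902). The separation of Npy from Prss56 was therefore seen only at high counts of both, and the upper bound was below 1 only where no barcode had both.

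**Figure D3:**
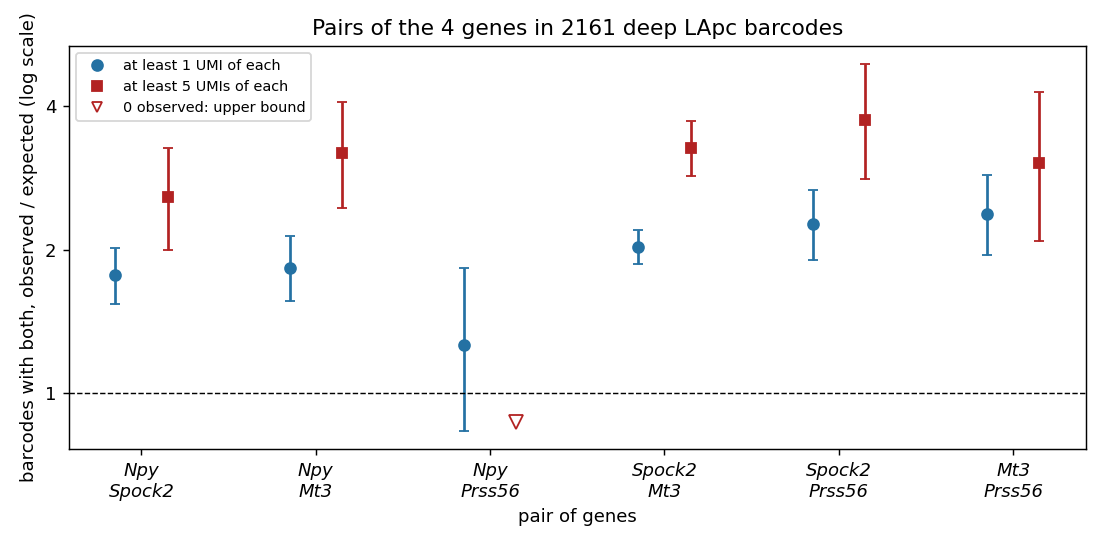
Number of deep LApc barcodes with both genes of a pair, divided by the number expected from independent detection (log scale), at 1 UMI and at 5 UMIs of each gene, with exact 95% intervals for counting error and the dashed line at 1. The other 5 pairs lie above 1 at both limits, while Npy with Prss56 spans 1 at 1 UMI and had 0 barcodes at 5 UMIs, drawn at its upper bound of 0.870.

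Correlations over the 2161 thinned barcodes also put Npy with Prss56 lowest, but ordered the other pairs differently from the ratios. They are descriptions of barcodes of 1 library, not of replicates. Pearson's r of log counts was 0.59 for Spock2 and Mt3, 0.33 for Spock2 and Prss56, 0.24 for Npy and Spock2, 0.23 for Npy and Mt3 and for Mt3 and Prss56, and -0.03 for Npy and Prss56. In shallow barcodes the counts were small: Spock2 and Mt3 were together in 17 barcodes against 5.82 expected, and Npy and Prss56 in 0 against 0.470.

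Among 8011 genes with a UMI in at least 10% of these barcodes, the genes most like Npy were Robo1 (r 0.55), a receptor for Slit guidance cues, Apoc4 (0.55), an apolipoprotein, Wif1 (0.51), a secreted Wnt inhibitor, Upk3a (0.49), a uroplakin, Tgfb2 (0.48) and Lect2 (0.48), both secreted factors, and Cst3 (0.44), a secreted protease inhibitor. For Npy the middle gene of the ranking had r of -0.00154, and percentiles 1 and 99 lay at -0.18 and 0.24. Robo1 itself stood at 31.5 CPM in LApc, 0.969 in LApcL and 0 in WT, and Lect2 at 104, 7.42 and 1.49. The lowest were Tmsb10 (-0.36), which binds actin, and the ribosomal protein genes Rpl10a and Rps2 (both -0.29).

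Spock2 and Mt3 shared several of their nearest genes. Pycr1 led both lists (r 0.64 with Spock2, 0.65 with Mt3). Pglyrp1, a peptidoglycan recognition protein (0.62 and 0.58), and Tcf4, a basic helix-loop-helix transcription factor distinct from the Tcf7l2 product (0.59 and 0.52), were also in both. Near Spock2 stood Notum (0.61), which inactivates Wnt ligands, Dkk3 (0.59) and Ifitm1 (0.59). Near Mt3 stood Gadd45g (0.55), a stress-response gene, Srp14 (0.53) and Parm1 (0.51). The lowest for both were Lgals4, a galectin of the gut epithelium (-0.61 and -0.47), and 2200002D01Rik (-0.56 and -0.41), followed by Krt19 (-0.52) for Spock2 and Lgals2 (-0.40) for Mt3.

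For Prss56 the nearest genes were Spock2 (0.33), Pycr1 (0.28), Tesc (0.25), Pglyrp1 (0.24), Dkk3 (0.23), Mt3 (0.23), Slc30a2 (0.23), a zinc transporter, and Sypl (0.23), and the lowest were Krt19 (-0.22), Lgals4 (-0.22) and 2200002D01Rik (-0.21). Robo1, nearest to Npy, had r of -0.05 with Prss56. A gene that is in few barcodes has a narrower range of r, and percentiles 1 and 99 lay at -0.11 and 0.15 for Prss56.

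Some of these genes are given by the split of Npy from Prss56 at 5 UMIs. Robo1, Wif1 and Tmsb10 were taken from the correlations with Npy and Slc30a2 from those with Prss56, so that their levels in these barcodes restate how they were chosen. Robo1 stood at 267 CPM in the 129 barcodes with Npy at that level, 9.86 in the 71 with Prss56 and 23.1 in the 1961 with neither. Wif1 stood at 832, 297 and 86.9 CPM. Slc30a2 was the other way, at 147, 307 and 106 CPM, and Tmsb10 was lower in the Npy barcodes, at 817 CPM against 2077 and 2039. Lef1 stood at 114, 110 and 79.9 CPM. Median depth was 31871, 31315 and 34708 UMIs.

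Genes that dampen Wnt signals were higher in barcodes with more of the 4 genes. The 6 Wnt antagonist genes, a list that the study drew from the same genotypes and that is therefore no independent evidence of direction, summed to 879 CPM in barcodes with none, 1993 with 1, 2841 with 2, 3425 with 3 and 3423 with all 4. Notum stood at 119 CPM with none and 787 with 3, Nkd1 at 295 and 1193, Dkk3 at 16.9 and 283, and Wif1 at 13.4 and 566. Axin2, a feedback inhibitor present in nearly all barcodes, stood at 373 and 548, and Dkk2 at 61.2 and 49.2. Wif1 was detected with each of the 4 genes at 2.03 to 2.40 times the expected number, Dkk3 at 1.86 to 2.30 times and Dkk2 at 0.642 (with Npy) to 1.12 times (with Mt3).

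Over the libraries, all 6 antagonist genes were at least 2-fold higher in LApc than in WT and 4 of the 6 than in LApcL, with median log2 ratios of 6.64 and 1.79, beside 0.31 and 0.00 over all genes with 10 UMIs or more in either library. Of all those genes 19.6% were at least 2-fold higher in LApc than in WT and 8.13% lower, and 3.92% were higher than in LApcL and 1.32% lower, which are the shares beside which the list counts stand. Wif1 stood at 125 CPM in LApc, 7.44 in LApcL and 0.0205 in WT, and Axin2 at 388, 299 and 19.6. Of 16 other Wnt factors and targets, 14 were at least 2-fold higher in LApc than in WT and 0 lower (19.6% and 8.13% of all genes), while 1 was at least 2-fold higher and 1 at least 2-fold lower than in LApcL (3.92% and 1.32% of all genes). These were Prox1, a homeobox factor, at 426 against 152 CPM, and Lgr5, at 34.7 against 89.98. Lef1 was at 72.0 CPM in LApc, 47.8 in LApcL and 0.961 in WT, and its UMIs in LApcL do not show whether the floxed exons were lost. The study reports having verified Lef1 deletion in its organoids before single-cell sequencing. With each of the 4 genes Lef1 was detected at 1.24 to 1.38 times the expected number.

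Proliferation genes went the other way across barcodes. The 6 genes of the list summed to 605 CPM in barcodes with none of the 4 genes, 400 with 1, 224 with 2, 183 with 3 and 77.3 with 4. Mki67, a mark of cycling cells, was detected with Spock2 in 89 barcodes against 212 expected, a ratio of 0.420 (0.339 to 0.514). The ratio was 0.522 for Mt3, 0.614 for Npy and 0.327 for Prss56, and the upper bound was below 1 in all 4 genes. Paneth cell genes stood at 2275 CPM with none and 2260 with 1, and were lower from 2 on, at 1010 with 2, 420 with 3 and 341 with 4. By Spock2 alone they stood at 2069 CPM with none, 2452 with 1 to 4 UMIs and 678 with 5 or more. Defa24 stood at 574 CPM with none, 4.76 with 3 and 27.3 with 4.

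The stem cell list summed to 850 CPM with none and to between 792 and 895 with any number of the genes, but it shares Axin2 with the Wnt antagonists, and Axin2 made up 373 CPM of it with none and 623 with 4. Without Axin2, a choice made after these values were seen, the other 5 genes summed to 477 CPM with none, 414 with 1, 317 with 2, 269 with 3 and 273 with 4. Ascl2 stood at 87.7 CPM with none and 16.9 with 3, Lgr5 at 45.4 and 19.0, and Axin2 as given above. The 6 epithelial genes stood at 7616 CPM with none and 6050 with 3, with Krt18 at 1815 and 2051 and Krt19 at 1225 and 389. Goblet genes summed to 557 and 97.4 CPM. Median depth was 37205.5 UMIs with none, 31311.5 with 1, 32202 with 2, 31127 with 3 and 38016.5 with 4, and median mitochondrial share was 6.37% with none and 4.82% with 3.

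**Figure D4:**
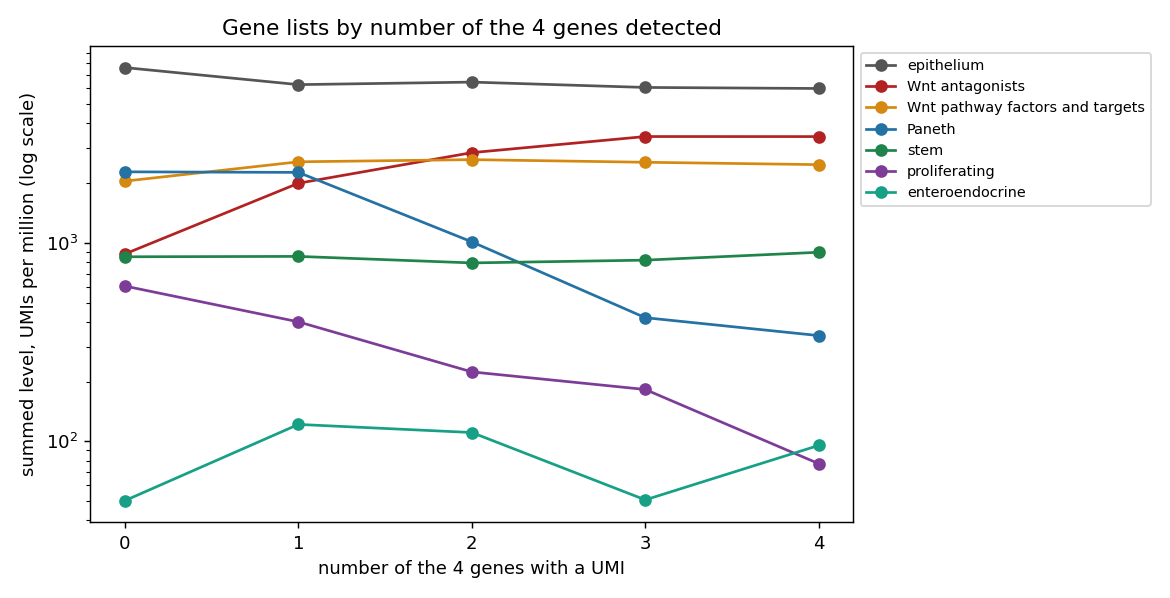
Summed level of 7 gene lists in CPM (log scale) in deep LApc barcodes, thinned to 10000 UMIs, by the number of Npy, Spock2, Mt3 and Prss56 with a UMI (1108, 464, 378, 189 and 22 barcodes). Wnt antagonists go from 879 to 3423 CPM and proliferation genes from 605 to 77.3 CPM. The stem list, at 792 to 895 CPM, includes Axin2, which is also a Wnt antagonist and makes up 373 to 623 CPM of it.

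Npy belongs to a family of 3 peptides with Pyy and Ppy. Pyy, a hormone of enteroendocrine cells, stood at 34.7 CPM in deep WT barcodes but at 0.0110 in LApc, 1 UMI, and Ppy had 0 UMIs in all 3 libraries. Of the receptors, Npy1r stood at 0.297 CPM in LApc, Npy2r at 0.0880 and Npy4r at 0.0440, while Npy5r and Npy6r had 0 UMIs there. The enzymes that mature such peptides were present: Pcsk1, which cuts precursors, at 50.3 CPM in LApc, 26.2 in LApcL and 15.6 in WT, and Pam, which amidates their ends, at 113, 49.9 and 10.7. Cpe, which trims the cut ends, was at 4.83, 1.52 and 27.1, and Dpp4, a protease that trims neuropeptide Y, at 10.6, 7.09 and 45.6. Pcsk1 stood at 208 CPM and Pam at 277 in barcodes with at least 5 Npy UMIs, against 41.9 and 108 in those with none. Of 14 genes of the list besides Npy, 9 had 10 UMIs or more in LApc or LApcL, and 2 of them, Pam and Cpe, were at least 2-fold higher in LApc (on CPM + 1) and 0 lower, beside 3.92% and 1.32% of all genes, with a median log2 ratio of 0.31 (0.00 over all genes). Against WT, 10 had 10 UMIs or more, of which 2 were at least 2-fold higher in LApc and 5 lower, beside 19.6% and 8.13% of all genes, with a median log2 ratio of -1.16 (0.31 over all genes).

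Markers of cells known for neuropeptides had low sums in deep LApc barcodes. The 17 enteroendocrine markers summed to 55.5 CPM in LApc, 29.7 in LApcL and 2072 in WT, with Gip, Gcg and Sst at 0 in LApc, and to 93.8 CPM in barcodes with at least 5 Npy UMIs against 75.8 in those with none. Chgb, a granin of secretory vesicles, was at 0.775 and 14.1 CPM in these groups. Nts, another peptide, was at 79.1 and 12.5. The 8 enteric neuron markers summed to 7.19, 1.13 and 5.95 CPM in LApc, LApcL and WT, with Stmn2 at 0 in LApc, and to 31.8 CPM in barcodes with at least 5 Npy UMIs against 5.90 with none, of which Uchl1 made up 26.4 and 3.22. The 6 enteric glia markers summed to 2.67, 2.02 and 2.78 CPM and the 6 fibroblast markers to 0.297, 0.435 and 1.76. The part of such cells in the Npy counts was not tested.

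Other lists of cell markers held genes whose level differed with some of the 4 genes. The 5 endothelial markers summed to 82.2 CPM in barcodes with at least 5 Npy UMIs and 19.5 with none, but to 21.1 and 24.5 for Prss56. Of these markers, Cdh5 stood at 48.1 and 2.36 CPM for Npy and at 0 and 6.43 for Prss56. Kdr and Tie1 were at 0.0880 and 0.0550 CPM in LApc deep barcodes. Of the 6 immune markers, Cd74 stood at 57.5 CPM in barcodes with at least 5 Mt3 UMIs and 11.9 with none, while Ptprc was at 0.0220 and Tyrobp at 0 in LApc. Of the 6 tuft markers, Avil was at 37.4 CPM with at least 5 Spock2 UMIs and 4.49 with none, but at 11.6 and 13.6 for Npy, while Dclk1 was at 0.0440 and Il25 at 0. The part of doublets or free RNA in these counts was not tested.

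Spock2 is 1 of 3 testicans. Spock1 and Spock3 had 0 UMIs in deep LApc and LApcL barcodes, with an upper limit of 0.0330 CPM in LApc by 3 counts, and 17 and 1 UMIs in WT. Of the 11 other genes of the matrix list, 6 had 10 UMIs or more, and 2 of these were at least 2-fold higher in LApc than in LApcL and 0 lower, beside 3.92% and 1.32% of all genes. These were Sparc, at 2.62 against 0.323 CPM, and Smoc1, at 2.51 against 0.224. Against WT 7 had 10 UMIs or more, of which 4 were at least 2-fold higher in LApc and 0 lower, beside 19.6% and 8.13%. Smoc2, which is also a stem cell marker, stood at 233 CPM in LApc, 390 in LApcL and 66.8 in WT, while Mmp14 and Mmp15 were at 21.5 and 23.9 CPM in LApc and 32.9 and 28.2 in LApcL.

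Mt3 and Mt4 were highest in LApc, unlike Mt1 and Mt2, but Mt4 was lower in LApcL than in WT where Mt3 was not. Mt1 and Mt2, which most cells induce with zinc, were at 462 and 78.0 CPM in LApc, 560 and 93.9 in LApcL and 8155 and 2164 in WT. Mt4, known from stratified epithelia, was at 53.6, 0.112 and 10.6 CPM. Of the 4, Mt3 alone was under 3 CPM in both WT and LApcL. Near-identical reads could be split between paralogs by the counting, which was not checked here.

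In deep LApc barcodes Mt4 had a UMI in 146 barcodes, of which 128 also had Mt3, against 40.3 expected, a ratio of 3.17 with r 0.58. It was in 37.5% of the 320 barcodes with at least 5 Mt3 UMIs, 2.89% of the 277 with 1 to 4 and 1.15% of the 1564 with none. Mt4 was itself concentrated, with 19 barcodes holding 50% of its UMIs. Mt1 showed no such relation, with a ratio of 0.991 and r 0.05, and Mt2 had a ratio of 1.22 and r 0.12. Of the zinc transporters, Slc30a2 stood at 97.7 CPM in LApc, 19.7 in LApcL and 20.8 in WT, whereas Slc30a1, a classical zinc-induced gene, was at 11.8, 10.9 and 51.3 and Mtf1, the zinc-sensing factor, at 16.3, 14.7 and 18.9. Slc30a4 was at 10.9, 10.1 and 17.3 CPM and the importer gene Slc39a10 at 30.7, 36.0 and 2.37. Of 11 genes of the list besides Mt3, 2 were at least 2-fold higher in LApc than in LApcL (Mt4 and Slc30a2) and 1 lower (Slc39a4, at 29.5 against 62.2 CPM), beside 3.92% and 1.32% of all genes. Against WT 4 were higher and 5 lower, beside 19.6% and 8.13%, with a median log2 ratio of -0.62 (0.31 over all genes).

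**Figure D5:**
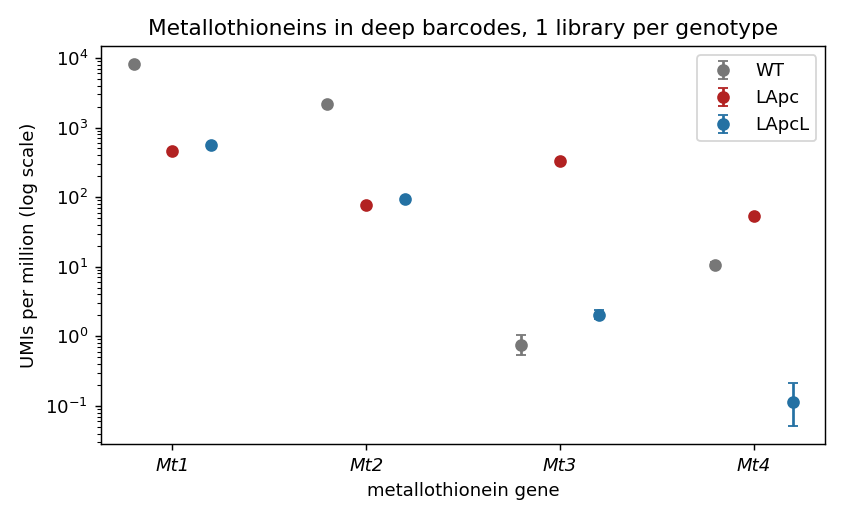
Level of the 4 metallothionein genes in deep barcodes in CPM (log scale), with exact 95% Poisson intervals, 1 library per genotype. Mt1 and Mt2 are highest in WT (8155 and 2164 CPM), while Mt3 and Mt4 are highest in LApc (332 and 53.6 CPM).

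Among 13 other serine proteases, 12 with 10 UMIs or more, Hpn was at least 2-fold higher in LApc than in LApcL, at 5.35 CPM in LApc, 1.06 in LApcL and 0.184 in WT, and 0 were at least 2-fold lower, beside 3.92% and 1.32% of all genes. Against WT, where all 13 had 10 UMIs or more, 5 were higher and 2 lower, beside 19.6% and 8.13% of all genes. Prss8 stood at 23.9, 24.97 and 45.4 CPM in the same order, Prss23 at 21.9, 17.1 and 31.5 and Prss32 at 64.2, 67.1 and 13.6, and the membrane-bound proteases St14 (90.9, 75.1 and 48.6), Tmprss2 (91.5, 97.3 and 43.0) and Tmprss4 (70.8, 105 and 24.4) were within 2-fold of each other in the mutant libraries. Prss30 had 0 UMIs in LApc.

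Neighbouring genes were looked at for each locus, 2 on either side in the RefSeq gene table. The 4 neighbours of Npy, lncRNAs and pseudogenes of which the nearest lay 28500 bases away, were not in the count table under their symbols. Next to Spock2, Ascc1 stood at 49.2 CPM in LApc, 37.7 in LApcL and 29.3 in WT, and Anapc16 at 115, 74.3 and 103. Next to Mt3 lay Mt4, 13576 bases before it and with the LApc level given above, and Mt2, 18470 bases after it and lower in LApc than in WT. Next to Prss56 lay Chrnd, a muscle acetylcholine receptor subunit, 2192 bases after it. Chrnd had 73 UMIs in LApc, 0.803 CPM (0.630 to 1.01), and 0 in LApcL and WT, and its r with Prss56 was 0.40. Reads that run past the end of a gene could be counted in its neighbour, which was not tested.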

How the data were processed

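Droplet single-cell 3′ RNA-seq of small intestinal organoids was used, with 1 library each for WT, LApc and LApcL. The deposited values are UMI counts per gene and barcode, made by the authors with Cell Ranger on mouse build mm10. The file headers name version 6.0.1 and the submitters' processing notes 2.1.1. No sample, gene or column was imputed.

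From these counts, barcodes of 1 library only with at most 20% mitochondrial UMIs were kept and split at 10000 UMIs. Deep barcodes numbered 1208 (WT), 2161 (LApc) and 1931 (LApcL). Doublets were left in, and Scrublet was run only as an alternative. Levels are UMIs summed per library, per 1000000 UMIs (CPM), and log2 ratios are on CPM + 1. Shares, pairs and correlations used counts thinned without replacement to 10000 or 1000 UMIs. Intervals are 95% exact Poisson, Clopper-Pearson or conditional binomial. With 1 library per group no test was run. The calculations were tested on simulated data. Python 3.11.15, numpy 2.4.6, scipy 1.17.1, pandas 2.3.3 and scanpy 1.11.5 were used.

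The 4 genes and all gene lists were chosen with earlier results of these data known. Named genes are the 4 genes, fixed lists around each, with values for those of at least 10 CPM in deep LApc barcodes, 2 annotated neighbours on each side, the 8 highest and 3 lowest correlated genes, and the 12 genes with the highest ratio of LApc to the higher of the other libraries. Mki67 and Xist are named where a result turns on them. Other genes of the lists are named where a count of 5 or fewer needs them, and were chosen after their values were seen, as were the limit of 5 UMIs, the motifs and the repeated thinning. 1 gene meeting the rule is not reported here. Gene positions come from GENCODE M21 and promoters from RefSeq, both on GRCm38.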

Additional observations from a re-analysis of the deposited data

Results flagged for a closer look

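The genes also appeared in LApc barcodes outside the main measurement, above their levels in the same kind of barcode of both other libraries. These barcodes belong to the same 3 libraries from which the genes were chosen, so they are no separate evidence. In barcodes with more than 20% mitochondrial UMIs Npy stood at 13.1 CPM (0 in WT, 0.0622 in LApcL), Spock2 at 81.4 (0.251 and 0.0622), Mt3 at 35.5 (0.376 and 3.05) and Prss56 at 17.4 (0.0418 and 0). In barcodes found in several libraries Npy stood at 30.7 CPM (0.360 in WT, 0.461 in LApcL), Spock2 at 25.4 (6.35 and 6.46) and Mt3 at 25.6 (0.1199 and 0.923). Prss56 stood there at 0.825 CPM (0.268 to 1.93) with 0 UMIs in WT and LApcL, and the intervals overlapped. Of the UMIs in the shared LApc barcodes, 169 of 186 for Npy, 79 of 154 for Spock2 and 139 of 155 for Mt3 lay in the 11 barcodes with at least 10000 UMIs.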

How the results depend on the processing

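No paired analysis was possible because each genotype has 1 library. Of the values with a counting interval that were recomputed under alternatives 121 stayed within it and 58 moved, and of the counts of genes 12 stayed within 1.5 times and 2 moved. No log2 ratio changed sign, but the genes were chosen for these ratios in the same counts, so this is no evidence of robustness. The cause of the moves was not tested. The log2 ratios of LApc to LApcL and to WT moved with a pseudocount of 10 CPM to 5.34 and 5.34 (Npy), 4.52 and 4.59 (Spock2), 4.83 and 4.99 (Mt3) and 3.26 and 3.26 (Prss56). Without the 22 LApc barcodes highest in the gene, chosen after seeing the data, they were 7.52 and 7.55 (Npy), 6.46 and 7.26 (Mt3) and 5.32 and 5.36 (Prss56). With barcodes weighted equally they were 8.75 and 8.78 (Npy), 6.59 and 6.58 (Prss56), and 7.95 over WT for Spock2. A mitochondrial limit of 10% gave 8.78 and 8.82 for Npy and 7.28 over WT for Mt3, and removal of the highest Scrublet scores 6.45 and 6.55 for Prss56 and 7.93 over WT for Mt3. Median-of-ratios scaling, which shifts LApc by -0.42 against WT and -0.03 against LApcL on the log2 scale, gave 8.45 and 8.48 for Npy and 7.30 over WT for Mt3.

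The shares of Npy, Spock2, Mt3 and Prss56 were 10.3%, 30.1%, 21.98% and 5.59% with barcodes from 5000 UMIs thinned to that number, 27.0%, 48.1%, 39.6% and 12.03% not thinned, and 5.97%, 19.5%, 14.8% and 3.29% at 5 UMIs. Spock2 was at 41.4% and Mt3 at 30.4% with the limit of 10%. All 4 genes were in 0.436% of barcodes from 5000 UMIs, 2.55% not thinned and 0% at 5 UMIs. Ratios of observed to expected pairs, not thinned and at 5 UMIs, were 1.29 and 2.58 (Npy and Spock2), 1.29 and 3.19 (Npy and Mt3), 1.58 and 3.26 (Spock2 and Mt3), 1.64 and 3.75 (Spock2 and Prss56) and 1.71 and 3.04 (Mt3 and Prss56). The ratio of Npy and Prss56, at 1.26 with an interval that includes 1, lay between 0.797 and 1.24 when the thinning was redrawn, and was 0 at 5 UMIs. The alternative sets of barcodes kept the thinned counts of the barcodes they share with the reported set, and the number with all 4 genes, 22, was 13 to 24 when redrawn. From 5000 UMIs Npy and Mt3 had 2.27 and Spock2 and Mt3 2.36. The 7 restricted genes became 3 with a pseudocount of 10 CPM, Npy alone of the 4, and 11 from 20 CPM in LApc.

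Depth limits the absence of a gene: 0 UMIs in deep barcodes allow 0.0614 CPM in WT and 0.0373 in LApcL by 3 counts. The spread between cultures of a genotype was not measured.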
